A study of Mus musculus with 16 samples.

Results

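Arrays of the same tumour cell line differed in how strongly they read the genes of cell division, and they did so in a like way in the d16HER2 lines MI6 and MI7. The 8 arrays of MI6 and MI7 were chosen by, and divided on, the measured mean level of cell cycle genes, 4 arrays with the lower mean (2 of MI6 and 2 of MI7) against 4 with the higher mean (2 of each line), out of 16 arrays in all. MI6 and MI7 are mouse mammary tumour lines that carry a d16HER2 transgene, a splice form of the HER2 receptor tyrosine kinase that lacks exon 16. The other 8 arrays were of WTHER2-1 and WTHER2-2, mammary tumour lines that carry a full-length (WT) HER2 transgene. No treatment, time or culture condition is given for any array, the labels do not name the promoter that drives the transgenes, and the 4 arrays of a line are repeats of that line. Whether these repeats are separate cultures is not given.

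A dividing cell makes its replication machinery late in G1 and in S phase and its mitotic machinery in G2 and M phase, under transcription factors of the E2F family and the DREAM and MuvB complexes. Cells that divide less often, or arrest, therefore hold less of both sets of transcripts. HER2 signalling through RAS, MAPK and PI3K feeds into the same control at the D cyclins.

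Values were log2 intensities after background correction and quantile normalization of all 16 arrays, and differences were taken within each line as lower-cycle minus higher-cycle arrays and then averaged over MI6 and MI7. Of 70 genes in the 2 cell cycle lists, 58 were measured, 31 of replication and 27 of mitosis. Their mean was 8.99 and 8.53 on the lower-cycle arrays of MI6 (replicates 1 and 4), against 10.10 and 10.09 on its higher-cycle arrays (replicates 2 and 3). In MI7 it was 9.71 and 9.07 on the lower-cycle arrays (replicates 1 and 4), against 10.24 and 10.20 on the higher-cycle arrays (replicates 2 and 3). MI7 replicate 1 lay closest to the other set, and the sets did not overlap in either line. These values chose the arrays, so every difference between the sets is given as a description, with no test, and the gene lists were compiled with earlier results of these data known.

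Replicates 1 and 2 of both lines were on BeadChip 1, and replicates 3 and 4 on BeadChip 2. Each BeadChip therefore held 1 lower-cycle and 1 higher-cycle array of each line. The lower-cycle arrays were at positions A and C on BeadChip 1 and at D and F on BeadChip 2, so the split is the interaction of BeadChip with position. Over both BeadChips together it is balanced against each of them, but within 1 BeadChip the lower-cycle and higher-cycle arrays differ in position too, and set and position cannot be told apart there. Median raw intensity ran from 91.83 to 101 on the lower-cycle arrays and from 93.18 to 104.8 on the higher-cycle arrays. The share of probes detected above the negative controls ran from 39.2% to 40.4% on the lower-cycle arrays and from 38.8% to 40.6% on the higher-cycle arrays. Both ranges overlapped between the sets.

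The name of a shared growth state needs a limit, since the lower-cycle arrays were not uniform. The higher-cycle arrays were close to identical within a line. MI6 replicates 2 and 3 had 3 genes at least 2-fold apart out of 10724 (r = 0.997 across genes), and MI7 replicates 2 and 3 had 10 (r = 0.994). The lower-cycle arrays of a line were not alike. MI6 replicates 1 and 4 had 412 genes at least 2-fold apart (r = 0.983), and MI7 replicates 1 and 4 had 689 (r = 0.976). When each array was expressed as its deviation from its line's mean, replicate 4 of MI6 followed replicate 4 of MI7 (r = 0.687 across genes), and replicate 1 of MI6 followed replicate 1 of MI7 less closely (r = 0.228). Replicate 1 of one line and replicate 4 of the other, which are both lower-cycle arrays, were near 0 (r = 0.08 for MI6 replicate 1 with MI7 replicate 4 and -0.08 for MI6 replicate 4 with MI7 replicate 1). These correlations are across genes, which are not independent replicates, and deviations within a line sum to 0. Within each line the lower-cycle arrays thus differed, replicate 1 on BeadChip 1 from replicate 4 on BeadChip 2, and values are given for both.

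The spread among the 8 arrays can be split without remainder, because line, BeadChip and set were balanced. Summed over genes, 36% of the squared spread lay between the lines. Of what was left, the lower-cycle against higher-cycle contrast held 39.89%, array position 17.7%, BeadChip 16.53% and the interaction of line with the contrast 9.79%. Line by position held 9.19% and line by BeadChip 6.90%. The arrays were picked by measured values, so the share of the contrast is a description. The higher-cycle arrays of a line hardly differed, so the BeadChip and position shares both hold mostly the difference between replicates 1 and 4. They are not to be read as 2 separate effects.

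Most markers of other cell types were detected on no array of either set, with exceptions that are named. Of the 12 fibroblast markers, 0 were detected on all 8 arrays and 7 on none, and their mean level ran from 5.05 to 5.32 on the lower-cycle arrays and from 4.96 to 5.22 on the higher-cycle arrays. The fibroblast marker Col6a1, a collagen chain, was read in MI7, at 7.26 and 7.31 on the lower-cycle arrays, against 6.52 and 6.56 on the higher-cycle arrays, a range that overlaps that of the epithelial marker Epcam on the lower-cycle arrays (6.84 to 7.71). Of 13 leukocyte markers with a probe, 11 were detected on no array, the pan-leukocyte gene Ptprc among them, and Csf1r and Aif1 were detected on all 8. Their mean ran from 4.99 to 5.08 on the lower-cycle arrays and from 4.97 to 5.07 on the higher-cycle arrays. The endothelial list had 1 of 10 (Kdr) and the adipocyte list 1 of 7 (Lep) detected on all 8 arrays, with 6 and 5 detected on none. Col1a1, Col1a2, Pdgfra, Gsn, Esam and Lipe were detected on only some of the 8 arrays. The endothelial marker Eng, a TGF-beta co-receptor, was detected on 3 of 4 lower-cycle and 0 of 4 higher-cycle arrays and read 5.93, 6.29, 5.26 and 6.07 on the lower-cycle arrays, against 5.37, 5.21, 5.07 and 5.01 on the higher-cycle arrays. Its sets lay apart within each line, and Tek was detected on 3 of 4 lower-cycle and 1 of 4 higher-cycle arrays. The part of other cells in the results was not tested. Endothelial means ran from 5.20 to 5.44 on the lower-cycle arrays and from 5.17 to 5.26 on the higher-cycle arrays, and adipocyte means from 5.04 to 5.27 on the lower-cycle and from 5.06 to 5.12 on the higher-cycle arrays. Of the 6 epithelial markers 5 were detected on all 8 arrays and Krt19 on none, with means of 11.15 to 11.33 on the lower-cycle arrays and 11.15 to 11.45 on the higher-cycle arrays.

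**Figure D1:**
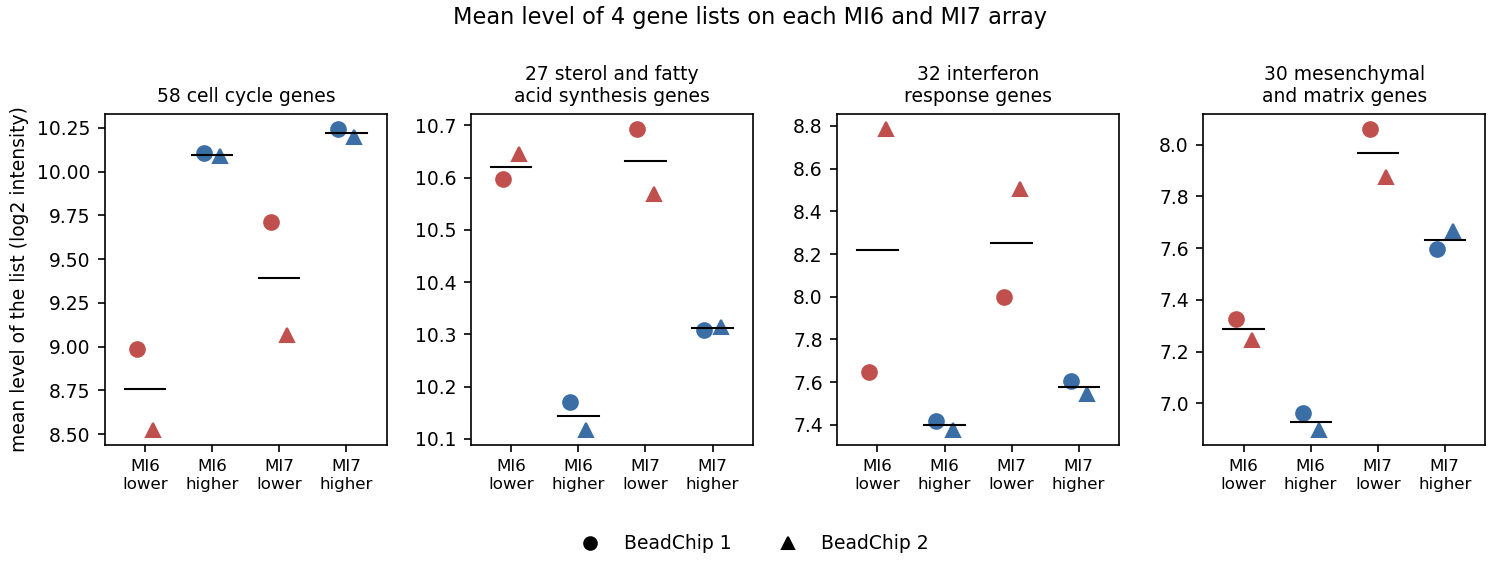
Mean log2 intensity (y axis) of 4 gene lists on each array of MI6 and MI7, with lower-cycle arrays in red and higher-cycle arrays in blue, circles for BeadChip 1, triangles for BeadChip 2 and a bar at the mean of the 2 arrays. Sterol and fatty acid synthesis genes sat above 10.5 on all 4 lower-cycle arrays and below 10.4 on all 4 higher-cycle arrays, while the interferon genes were highest on the BeadChip 2 lower-cycle arrays, at 8.78 and 8.50.

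Mitotic genes had the largest difference of the lists measured. Of 27 mitosis genes, 26 had a lower mean on the lower-cycle arrays, and the median difference was -1.34 on the log2 scale, with -1.47 in MI6 and -1.10 in MI7, against a median of 0.03 over all 10724 genes. A gene was counted as shifted when, in each line, both lower-cycle arrays lay on the same side of both higher-cycle arrays and the means differed at least 2-fold, in the same direction in MI6 and MI7. Of all genes tested 0.951% were shifted lower by this rule and 0.224% higher. Of the mitosis genes 18 were shifted lower, and since the arrays were split by such genes nothing is read from that count. Over all genes 55% had a mean difference above 0. Kif23, the midbody kinesin, was the 1 member with a higher mean, by 0.17.

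The spindle genes show the pattern array by array. Nusap1, which bundles spindle microtubules, read 10.65 and 10.09 on the lower-cycle arrays of MI6 and 11.19 and 11.11 on those of MI7. On the higher-cycle arrays it read 12.24 and 12.32 in MI6 and 12.59 and 12.52 in MI7. All 4 lower-cycle arrays lay below all 4 higher-cycle arrays, and the difference was -1.66. Bub1b, a kinase of the spindle checkpoint, read 9.15, 8.31, 10.07 and 9.22 on the lower-cycle arrays (MI6 replicates 1 and 4, then MI7 replicates 1 and 4). On the higher-cycle arrays it read 10.57, 10.49, 11.08 and 10.81 (MI6 replicates 2 and 3, then MI7 replicates 2 and 3). Its groups did not overlap, and within each line replicate 4 was the lowest array. Kif11, the motor that pushes spindle poles apart, read 7.62, 7.44, 8.42 and 7.69 on the lower-cycle arrays in the same order, against 9.25, 9.29, 9.65 and 9.12 on the higher-cycle arrays. Ect2, an activator of RHOA in cytokinesis, behaved unlike these in MI7: its lower-cycle arrays read 8.64 and 6.86, against 8.83 and 8.77 on the higher-cycle arrays. Replicate 1 thus differed little for Ect2 and replicate 4 by a great deal. Birc5 (survivin) and Kif2c, a microtubule depolymerase, both differed by -1.54.

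Many promoters of the mitosis genes hold 2 short elements known for such genes. All measured members were searched whatever their levels, so the counts describe the list and not the arrays. The same holds for the other lists searched below. The CHR element (searched as TTTGAA) and the CCAAT box (searched as CCAAT) are known to bind the MuvB complexes and the NF-Y factor at G2 and M phase genes. Both strands of the RefSeq promoters (GRCm38.p6, 250 bases before to 50 after the start) were searched, and promoters were at hand for 8688 of the 10724 genes. Of the 22 mitosis genes with a promoter, 16 (72.7%) held both elements, against 5.88% of all genes tested. CHR alone was in 18 of 22 (81.8%), against 14.4% of all genes, and CCAAT in 17 of 22 (77.3%), against 43.2%. Of 26 replication genes with a promoter 4 (15.4%) held a CHR. A match is a description of letters, not a bound site. The 2 promoters below are of the mitosis genes with the largest difference that hold both elements, with the elements in capitals.
Bub1b (chr2:118597961-118598260, plus strand): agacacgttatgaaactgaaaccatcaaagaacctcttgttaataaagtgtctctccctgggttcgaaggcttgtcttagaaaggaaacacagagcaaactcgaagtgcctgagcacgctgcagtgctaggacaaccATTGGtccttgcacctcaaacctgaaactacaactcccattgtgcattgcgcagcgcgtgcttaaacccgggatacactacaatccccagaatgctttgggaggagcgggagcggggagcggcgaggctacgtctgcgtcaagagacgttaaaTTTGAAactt
Kif11 (chr19:37376132-37376431, plus strand): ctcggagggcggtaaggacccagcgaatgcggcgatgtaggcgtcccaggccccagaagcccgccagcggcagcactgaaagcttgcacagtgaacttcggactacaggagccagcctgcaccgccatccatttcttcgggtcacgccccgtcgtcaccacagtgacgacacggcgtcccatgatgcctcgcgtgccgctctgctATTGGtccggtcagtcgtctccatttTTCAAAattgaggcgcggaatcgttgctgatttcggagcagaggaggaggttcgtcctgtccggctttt

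Replication genes were lower too, with a smaller difference. All 31 measured members had a lower mean on the lower-cycle arrays, 23 lay apart in both lines and 5 were shifted lower, and the median was -0.95 (-1.10 in MI6 and -0.64 in MI7). Over all genes 9.66% lay apart as lower and 10.7% as higher. Rrm2, the small subunit of ribonucleotide reductase, read 7.80, 7.58, 8.69 and 7.78 on the lower-cycle arrays (MI6 then MI7), against 9.58, 9.35, 9.32 and 9.31 on the higher-cycle arrays. Those sets did not overlap, and MI7 replicate 1 was the lower-cycle array nearest the others. Tk1, the thymidine kinase of S phase, differed by -1.38 at its brightest probe, and its other probes gave -0.48, -0.36 and -1.31. Tyms, thymidylate synthase, gave -1.38 and, at its other probes, -1.41, -0.37, -0.41 and -0.40, and the related pseudogene Tyms-ps on the array gave -1.45, so the reading of these 2 is uncertain. Mcm10 and Cdc45, which take part in activating the replicative helicase, differed by -1.35 and -1.03. The helicase subunit Mcm2, named after its values were seen like Kif23, Tyms-ps and Neil3, was not apart in MI7: it read 10.33 and 9.26 on the lower-cycle arrays there, against 10.34 and 10.32 on the higher-cycle arrays. Mcm2 in MI6 read 9.08 and 8.57 on the lower-cycle arrays, against 10.36 and 10.38 on the higher-cycle arrays, with no overlap. MI7 replicate 1 thus read mitosis genes low (mean 9.64, against 10.37 and 10.30 on the higher-cycle arrays) but replication genes less so (9.77, against 10.13 and 10.11).

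Of 102 genes shifted lower, 23 were in the 2 cell cycle lists and 79 outside them. Those named by their size outside the lists included genes with known roles in chromosome condensation and segregation, which are not a list fixed for this purpose. Ncapg, a condensin subunit, differed by -2.20, was detected on 2 of the 4 lower-cycle arrays and on all 4 higher-cycle arrays, and read 5.67, 4.91, 5.13 and 6.07 on the lower-cycle arrays, against 7.67, 7.83, 7.59 and 7.47 on the higher-cycle arrays. No array of one set reached the other. Smc2, the condensin ATPase, differed by -1.96, with a reading of 5.25 on MI7 replicate 1 against 7.96 on MI7 replicate 4. Ndc80, of the outer kinetochore, differed by -1.74, Kif15, a spindle kinesin, by -1.78, Aspm, a spindle pole protein, by -1.64, Kif22, a chromosome arm kinesin, by -1.54 and Kif20b, a kinesin of cytokinesis, by -1.49. The condensin II subunit Ncapg2 gave -1.65, with -1.74 at its other probe. Parpbp, a regulator of homologous recombination, gave -1.59. Mns1, known for sperm flagella, gave -1.79 and was detected on 1 of 4 lower-cycle arrays. Neil3, a DNA glycosylase, was the 1 shifted gene detected on no lower-cycle array, so no size is given for it.

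Not every gene on the list of the lowest was a division gene. Sdc4, the heparan sulphate proteoglycan syndecan-4, read 11.50, 8.27, 9.78 and 9.02 on the lower-cycle arrays, against 11.66, 11.61, 11.56 and 11.22 on the higher-cycle arrays. MI6 replicate 1 hardly differed from its line's higher-cycle arrays, and MI6 replicate 4 was far below them. Cbx3, the heterochromatin protein HP1 gamma, did the same: it read 11.53, 9.04, 10.28 and 10.65 on the lower-cycle arrays, against 11.87, 11.91, 12.12 and 12.07 on the higher-cycle arrays, and its other probes gave differences of -0.58 and -0.97 in place of -1.62. The groups did not overlap within a line for either gene.

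**Figure D2:**
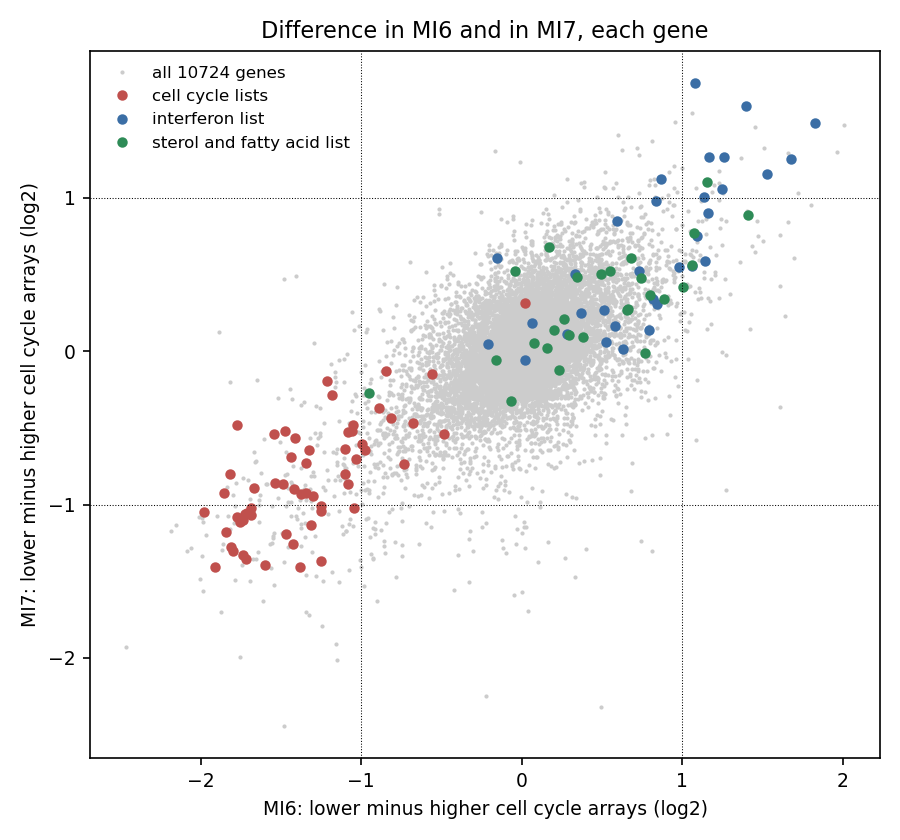
Difference of lower-cycle minus higher-cycle arrays in MI6 (x axis) and in MI7 (y axis), both on the log2 scale, for each of 10724 genes in grey, with the cell cycle, interferon and sterol lists in colour and dotted lines at a 2-fold difference. Most cell cycle genes lie at the lower left (31 of 31 replication and 26 of 27 mitosis genes have a mean difference below 0), and most interferon (30 of 32) and sterol (24 of 27) genes have one above 0.

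The 2 lines resembled each other in the whole profile, and MI6 had the larger differences. The correlation of the MI6 with the MI7 difference was 0.610 across all genes and 0.595 across the 10666 genes outside the cell cycle lists, as a description, since both carry BeadChip and normalization in common. In MI6 355 genes differed at least 2-fold, 108 higher and 247 lower on the lower-cycle arrays, and in MI7 229, 58 higher and 171 lower. Of the 126 shifted genes 95 had the larger difference in MI6. The counts of 24 shifted higher and 102 lower changed when single arrays were left out. They were 46 and 174 without MI7 replicate 1 and 11 and 44 without MI7 replicate 4, and 7 genes were shifted higher without MI6 replicate 4. A line with an array left out has fewer arrays that must lie apart, so counts can rise for that alone.

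The difference between lines in the contrast was also fitted. The sets were picked within each line by measured values, so this fit has no known error rate, and its counts describe these 8 arrays and support nothing. In limma, the interaction of line and set gave 0 of 10724 genes (0%) at a Benjamini-Hochberg adjusted p under 0.05, with 271 (2.53%) at an unadjusted p under 0.05, and with BeadChip in the model the counts were 0 and 327. The lowest adjusted p was 0.525. With the 2 lowest unadjusted p in each direction, the fit singled out the chemokine gene Cxcl2, the heme oxygenase gene Hmox1, the G protein regulator Rgs16 and the plasminogen activator Plau. Cxcl2 read 6.76 and 6.75 on the lower-cycle arrays of MI6, against 8.73 and 8.55 on its higher-cycle arrays. In MI7 it read 6.13 and 6.04 on the lower-cycle arrays, against 5.97 and 5.95 on the higher-cycle arrays. The MI6 minus MI7 difference of differences was -2.01 ± 0.28 (SE from limma, 8 arrays). Leaving out 1 array moved the count of calls to 43 without MI7 replicate 4 and to 1 without MI6 replicate 4.

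By the 2-fold rule fewer genes were higher (24) than lower (102) on the lower-cycle arrays, while 1144 lay apart as higher and 1036 as lower with no limit on size. In all 9 of the 24 shifted higher were in the interferon list. These genes are induced by interferon and restrict viruses. Of 32 measured members 30 had a higher mean, 17 lay apart in both lines and 9 were shifted higher, with a median of 0.74 (0.84 in MI6 and 0.57 in MI7), against 0.03 over all genes. Ifit3, which binds viral RNA complexes, read 8.38 and 10.42 on the lower-cycle arrays of MI6, against 7.51 and 7.64 on its higher-cycle arrays. In MI7 Ifit3 read 8.65 and 9.62 on the lower-cycle arrays, against 7.88 and 7.41 on the higher-cycle arrays. All lower-cycle arrays lay above all higher-cycle arrays, and replicate 4 was the highest array of each line. The difference was 1.66, with a SD of 0.81 between like arrays and 1.30 at its other probe. Usp18, a protease that removes ISG15 from proteins, read 9.54, 12.14, 9.99 and 11.11 on the lower-cycle arrays (MI6 then MI7), against 9.16, 9.17, 9.51 and 9.09 on the higher-cycle arrays. MI6 replicate 4 was alone above 12 in that line. Mx2, an antiviral GTPase, read 7.37, 9.20, 8.35 and 8.47 on the lower-cycle arrays, against 7.08, 6.70, 6.68 and 6.94 on the higher-cycle arrays, with no overlap. Irf7, the factor that drives interferon genes, gave 1.41, Rsad2 (viperin) 1.26 and Isg15, the ubiquitin-like modifier, 1.22. Outside the list, Apol9b and Apol9a gave 1.74 and 1.63, the nucleotide kinase Cmpk2 1.31, Ifi27l2a 1.42, and the surface ectoenzyme gene Bst1 1.46. Apol9a and Apol9b are close copies, so a probe may read both.

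Most of the interferon promoters at hand carry the element known for such genes, but not all. The ISRE core, searched as GAAANNGAA on both strands, was in 15 of 23 interferon genes with a promoter (65.2%), against 8.0% of all genes tested. A form longer by 1 A, which was searched first, was in 14 of 23 (60.9%), against 3.64%. The promoters of Ifit3 and Rsad2, the members with the largest difference that hold it, follow with the element in capitals.
Ifit3 (chr19:34583279-34583578, plus strand): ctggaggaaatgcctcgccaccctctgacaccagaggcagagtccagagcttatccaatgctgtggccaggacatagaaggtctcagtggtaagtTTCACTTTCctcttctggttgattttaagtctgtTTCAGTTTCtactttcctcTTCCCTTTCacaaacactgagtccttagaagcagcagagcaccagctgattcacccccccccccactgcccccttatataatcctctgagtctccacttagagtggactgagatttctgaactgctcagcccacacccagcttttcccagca
Rsad2 (chr12:26456403-26456702, minus strand): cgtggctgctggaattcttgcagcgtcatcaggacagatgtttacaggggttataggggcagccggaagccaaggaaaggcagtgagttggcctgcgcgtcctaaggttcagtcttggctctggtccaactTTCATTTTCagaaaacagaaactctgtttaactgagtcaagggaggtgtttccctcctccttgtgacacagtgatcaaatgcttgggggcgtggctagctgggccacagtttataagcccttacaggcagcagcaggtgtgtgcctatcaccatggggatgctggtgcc

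The interferon difference was larger on BeadChip 2. The mean of the 32 genes was 7.65 and 8.78 on the lower-cycle arrays of MI6 (replicates 1 and 4), against 7.42 and 7.38 on its higher-cycle arrays. In MI7 it was 7.999 and 8.502 on the lower-cycle arrays, against 7.60 and 7.55 on the higher-cycle arrays. Without MI6 replicate 4 the list's median was 0.45. Within BeadChip 1 (replicate 1 minus replicate 2) it was 0.24 and 0 members were at least 2-fold higher in both lines. Within BeadChip 2 (replicate 4 minus replicate 3) the median was 1.31 and 15 members were. Over all genes tested, the share at least 2-fold higher in both lines was 0.196% on BeadChip 1 and 0.914% on BeadChip 2. Antigen presentation genes, which interferon also induces, had a median of 0.32, and 8 of 19 lay apart as higher, led by the immunoproteasome subunit Psmb8 (1.00, with 0.70 at its other probe) and the peptide transporter Tap1 (0.91).

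Sterol and fatty acid synthesis genes were higher on both BeadChips. SREBP factors drive them when cell cholesterol is low, and growing cells need them for membrane. Of 27 measured genes 24 had a higher mean, 16 lay apart as higher and 0 as lower, with a median of 0.43 (0.49 in MI6 and 0.34 in MI7). Their mean was 10.60 and 10.64 on the lower-cycle arrays of MI6, against 10.17 and 10.12 on its higher-cycle arrays. In MI7 it was 10.69 and 10.57 on the lower-cycle arrays, against 10.31 and 10.31 on the higher-cycle arrays. The median was 0.40 within BeadChip 1 (0.27 in MI6 and 0.40 in MI7) and 0.45 within BeadChip 2 (0.60 in MI6 and 0.30 in MI7). Acss2, which makes acetyl-CoA from acetate, was the 1 member shifted higher: it read 12.37, 13.05, 11.86 and 12.67 on the lower-cycle arrays, against 11.63, 11.48, 11.21 and 11.10 on the higher-cycle arrays. All 4 lower-cycle arrays lay above all 4 others. The genes named next were chosen after their values were seen. Mvd, of the mevalonate pathway, read 9.15, 9.36, 9.20 and 9.20 on the lower-cycle arrays, against 7.70, 7.99, 8.38 and 8.24 on the higher-cycle arrays, a difference of 1.15 with an SD of 0.14 between like arrays. Its sets did not overlap and the lower-cycle arrays were close together. Cyp51, a sterol demethylase, gave 0.92 and Insig1, which holds SREBP in the endoplasmic reticulum, 0.61. Srebf2, the factor of the sterol genes, gave 0.41, while Srebf1 gave -0.61, was not apart, and read 10.04, 9.53, 10.93 and 9.70 on the lower-cycle arrays, against 10.81, 10.66, 10.63 and 10.56 on the higher-cycle arrays.

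CCAAT, where NF-Y acts beside SREBP, was in 19 of 21 sterol and fatty acid genes with a promoter (90.5%), against 43.2% of all genes. The SRE letters TCACNCCAC were in 0 of 21, against 1.3% of all genes. The promoter of Mvd, the member with the largest difference, follows with CCAAT, on either strand, in capitals.
Mvd (chr8:122443373-122443672, minus strand): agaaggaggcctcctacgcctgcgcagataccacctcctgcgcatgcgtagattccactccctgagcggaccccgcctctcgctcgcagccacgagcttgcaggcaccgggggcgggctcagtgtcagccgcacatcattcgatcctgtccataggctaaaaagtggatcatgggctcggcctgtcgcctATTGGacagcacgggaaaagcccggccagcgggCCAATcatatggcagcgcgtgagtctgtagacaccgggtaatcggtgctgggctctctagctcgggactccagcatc

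**Figure D3:**
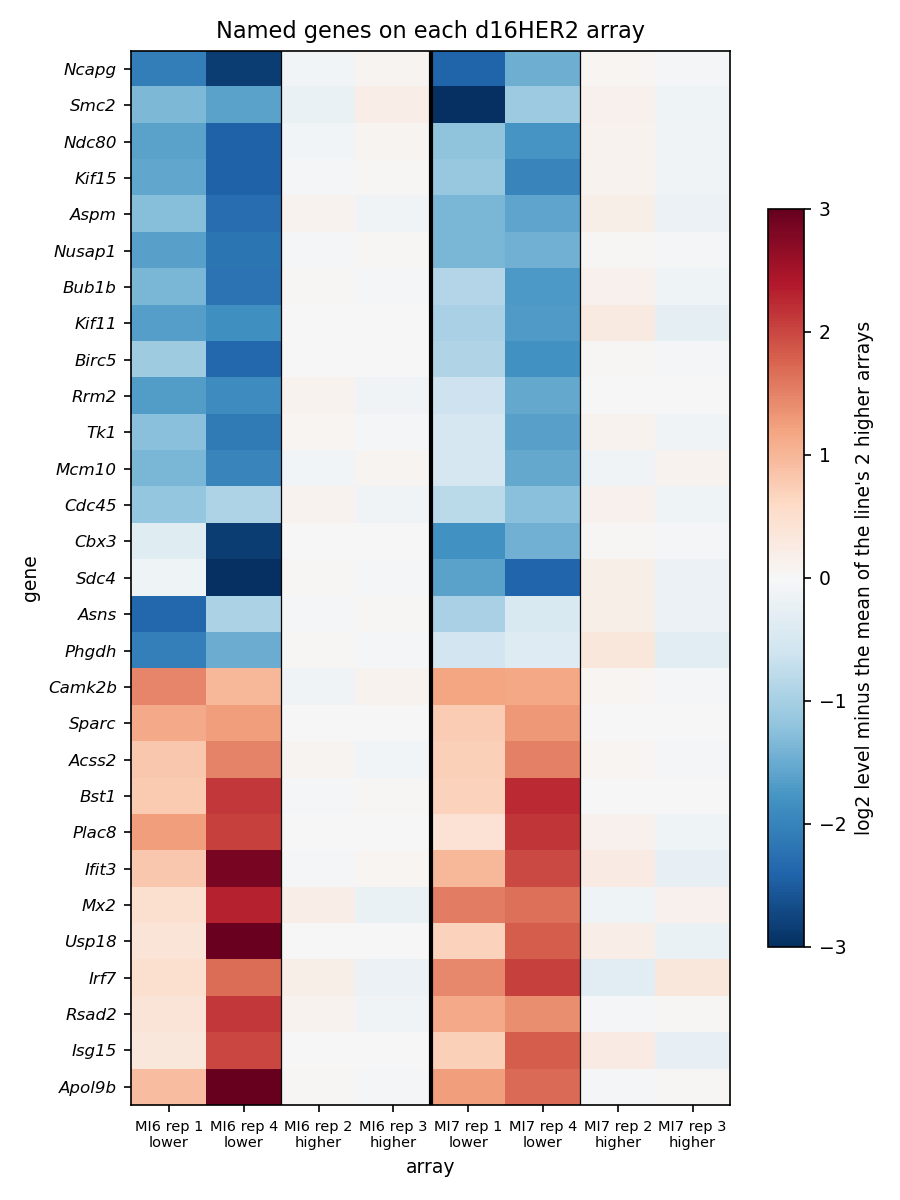
Level of named genes (rows) on each array (columns), as log2 level minus the mean of the 2 higher-cycle arrays of the same line, with blue below and red above. The division genes are blue on the lower-cycle arrays of each line. Ifit3 and Usp18 are darkest on replicate 4 of MI6, and Irf7 on replicate 4 of MI7.

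Other lists had smaller or less even differences. Mesenchymal and matrix genes had a median of 0.28, with 25 of 30 higher, 12 apart as higher and 0 as lower, and 1 shifted: Sparc, a secreted matrix protein. Sparc read 8.91, 9.04, 8.01 and 8.55 on the lower-cycle arrays (MI6 then MI7), against 7.79, 7.78, 7.22 and 7.26 on the higher-cycle arrays, with no overlap within a line. Its other probes gave 0.02 and 1.05 in place of 1.11. Within BeadChip 1 the list's median was 0.29 and within BeadChip 2 0.30. Of the fibroblast markers, 7 of 12 were detected on no array, and Col6a1, which is also in this list, differed by 0.44.

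Ribosome biogenesis genes and MYC targets had a median of -0.27, with 23 of 26 lower and 9 apart as lower. Nme1, a nucleoside diphosphate kinase, gave -0.74 and Rrp12, of ribosome assembly, -0.61. Myc itself, named after its values were seen, was higher by 0.68, and it read 8.22 on MI6 replicate 1 and 6.83 on MI6 replicate 4. The core histone list, which also holds the linker histone H1f2 and the chromatin proteins Hmgb2 and Hmgn2, had a median of -0.21. Of its 19 members 0 were shifted and 8 lay apart as lower, such as H3c1 (-1.13) and H2bc21 (-1.08, with 0.31 at its other probe). Outside the list, and named after their values were seen, 5 other histone genes were shifted lower: H2ac21 (-1.58), H2ac15 (-1.52), H2ac11 (-1.52), H2ac12 (-1.37) and H3c7 (-1.19). Histone genes are close copies, so their probes may share targets.

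Serine synthesis and ATF4 genes had a median of -0.53 in MI6 and 0.01 in MI7. Asns, asparagine synthetase, read 10.73 and 12.12 on the lower-cycle arrays of MI6, against 13.05 and 13.11 on its higher-cycle arrays. In MI7 it read 11.30 and 11.81 on the lower-cycle arrays, against 12.44 and 12.10 on the higher-cycle arrays, so replicate 1 was the lowest array of each line. Phgdh, the first enzyme of serine synthesis, read 6.82 and 7.37 on the lower-cycle arrays of MI6, against 8.89 and 8.84 on its higher-cycle arrays. In MI7 Phgdh read 6.74 and 6.92 on the lower-cycle arrays, against 7.66 and 6.97 on the higher-cycle arrays, so replicate 4 hardly differed from replicate 3. The list's median was -0.43 within BeadChip 1 and -0.05 within BeadChip 2.

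Cell cycle brakes and growth signals had medians near that of all genes, while most hypoxia and lysosome genes were somewhat higher. Of 14 D cyclins and CDK inhibitors 0 were shifted, the median was -0.17, and Rbl1, a pocket protein, gave -1.06 and Cdkn2d -0.84. Ccnd1, named after its values were seen, gave 0.05. The FOXO and quiescence list had a median of 0.00, with differences of 0.86 for Txnip, which restrains glucose uptake, and -1.05 for the transcription factor Klf2. Klf2 was not apart in MI7, where it read 12.19 and 10.23 on the lower-cycle arrays, against 11.72 and 11.89 on the higher-cycle arrays. The p53 targets had a median of 0.06, with 1 of 21 shifted, the mitotic gene Gtse1 (-1.08). Hypoxia and glycolysis genes had a median of 0.20, with 25 of 30 higher, 7 apart as higher and 2 as lower. Lysosome genes had a median of 0.20, with 21 of 26 higher, 6 apart as higher and 0 as lower. Over all genes 55% had a higher mean and 10.7% lay apart as higher. Within BeadChips 1 and 2 the medians were 0.13 and 0.32 for hypoxia genes and 0.12 and 0.28 for lysosome genes. The median of MAPK feedback genes was 0.09. It was 0.38 within BeadChip 1 and -0.14 within BeadChip 2, so its sign turned, as did that of the AP-1 and immediate early list (0.28 and -0.19).

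Lists of mammary identity and of HER2 family signalling were near the median of all genes. The 11 ERBB receptors and ligands had a median of 0.13 with 0 shifted, and the ligand genes Epgn and Nrg1 differed by 0.48 and -0.43. Luminal and milk genes had a median of -0.01, mammary progenitor regulators -0.02, basal genes 0.01, epithelial junction genes 0.10 and Notch, Hedgehog and Wnt genes 0.15. In these lists 0 genes were shifted. The largest differences among them were -0.92 for the retinaldehyde dehydrogenase Aldh1a3 (-0.19 at its other probe) and 0.80 for the Notch ligand Dll1. Respiratory chain genes had a median of -0.11, with 23 of 26 lower and 6 apart as lower, and ribosomal proteins a median of 0.06. Chaperones of the endoplasmic reticulum (-0.11), heat shock genes (-0.02), antioxidant genes (-0.09) and chemokines and cytokines (0.06) also held 0 shifted genes.

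**Figure D4:**
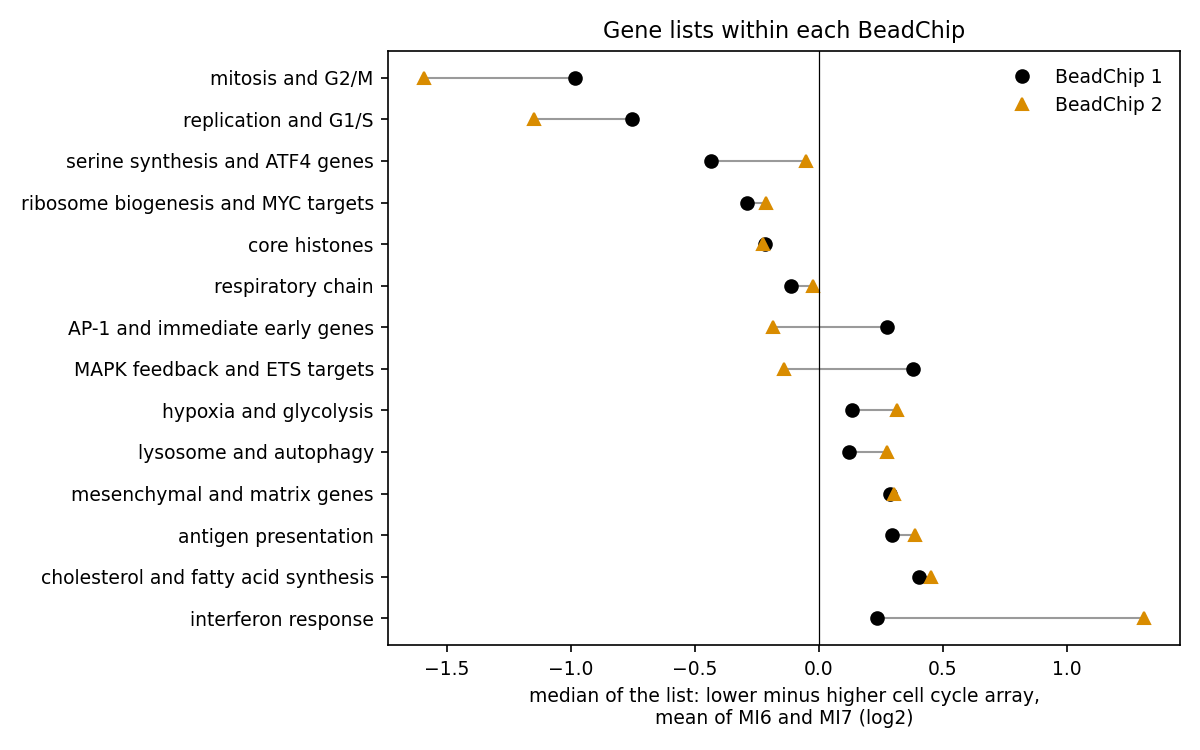
Median of each gene list (x axis, log2 difference of lower-cycle minus higher-cycle array, mean of MI6 and MI7) within BeadChip 1 (circles) and BeadChip 2 (triangles). Mitosis genes are at -0.98 and -1.59, sterol and fatty acid genes at 0.40 and 0.45, and interferon genes at 0.24 and 1.31.

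Across all genes the BeadChips shared part of the contrast. With 1 array against 1 in each line, 21 genes were at least 2-fold higher and 45 lower in both lines on BeadChip 1, and 98 higher and 192 lower on BeadChip 2. As shares of all genes, these were 0.196% higher and 0.420% lower on BeadChip 1, and 0.914% and 1.79% on BeadChip 2. Of the lower genes 29 were common, 64.4% of those on BeadChip 1 and 15.1% of those on BeadChip 2. Of the higher genes 0 were common, and with such small shares called higher that count says little about whether they recur. The differences of the 2 BeadChips had a correlation of 0.395 across genes and 0.372 outside the cell cycle lists. Between MI6 and MI7 the correlation was 0.292 on BeadChip 1 and 0.710 on BeadChip 2. Camk2b, a calcium-dependent kinase, was higher by 1.56 in MI6 and 1.13 in MI7 on BeadChip 1, and by 0.90 and 1.23 on BeadChip 2. The part of BeadChip or position in these differences was not tested.

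The WT HER2 arrays, which had no part in the split, hold 1 array with a cell cycle mean near that of the higher-cycle ones. The cell cycle mean was 10.15 on WTHER2-1 replicate 3, against 8.76, 9.17 and 8.81 on the line's other arrays, and 8.56 to 8.99 in WTHER2-2. The mean of the 79 genes shifted lower outside the cell cycle lists was 9.31 on WTHER2-1 replicate 3, against 8.12, 8.39 and 8.12 on the other 3. Many of the 79, such as Ncapg, Ndc80 and Kif15, are division genes themselves. Their mean is therefore not separate from the cell cycle mean and adds no evidence to it. The 15 genes shifted higher outside the interferon list averaged 8.79 on WTHER2-1 replicate 3, against 9.58, 9.53 and 9.66, but they were not alike. Among them Sparc read 7.46 there, against 10.90, 10.84 and 10.70. Acss2, also in the sterol list, read 9.75, against 11.54, 11.75 and 11.66. Apol9b went the other way, at 11.48 against 10.69, 10.29 and 10.52, and so did Cmpk2, at 8.45 against 8.17, 7.31 and 7.96. The interferon list did not follow the mean of the 15, at 9.86 against 9.84, 9.47 and 9.78. Nor did sterol and fatty acid genes, at 10.40 against 10.30, 10.33 and 10.30. The interferon list's members were not alike either. Ifit3 read 8.87 on WTHER2-1 replicate 3, against 11.75, 10.68 and 11.54. Isg15 read 12.13, against 11.91, 11.29 and 11.66, and Usp18 and Rsad2 were likewise above the line's other arrays. Mx2 and Irf7 lay within the range of those arrays. Mesenchymal genes were at 8.22, against 9.30, 9.35 and 9.34, and fibroblast markers at 7.16, against 7.95, 7.88 and 7.97. With 4 arrays a line no correlation was computed, and these are values of 1 array.

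**Figure D5:**
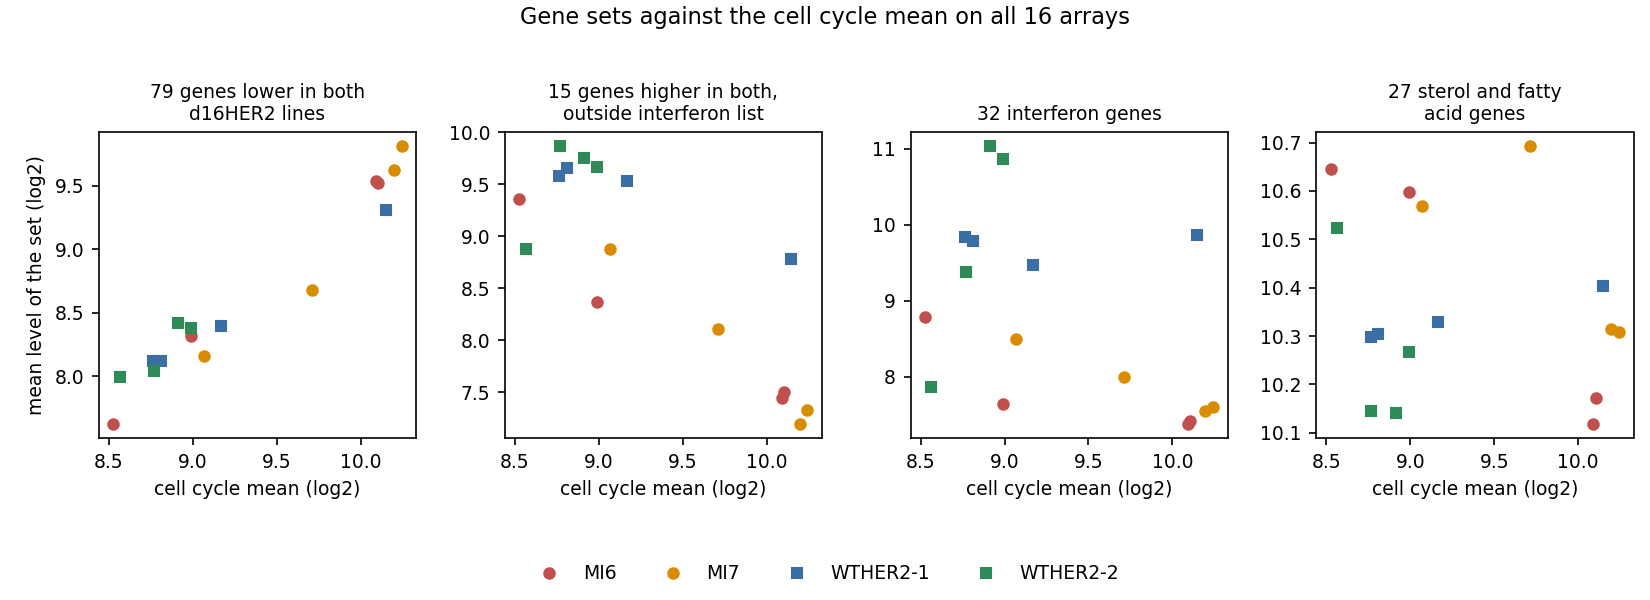
Mean level of 4 gene sets (y axis, log2 intensity) against the cell cycle mean (x axis, log2 intensity) on all 16 arrays, coloured by line. In the left panel WTHER2-1 replicate 3 sits at a cell cycle mean of 10.15 and a set mean of 9.31, near the higher-cycle arrays of MI6 and MI7, and in the interferon panel it sits at 9.86, beside its line's other arrays.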

How the data were processed

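Expression was measured on Illumina BeadChips in 16 arrays of 4 lines, 4 arrays each. The authors deposited raw average intensity per probe with a detection p-value for each array, per the file headers, and a table of normalized intensity whose arrays share 1 distribution; the submitters' processing notes name BeadStudio. The median raw intensity and the share of probes detected stand in the report, and the number of arrays limits the precision. In R 4.3.3 with limma 3.58.1 and statmod 1.5.0, the raw intensity was corrected by normexp (offset 16, negative controls taken from detection p). It was then quantile-normalized over 16 arrays and put on the log2 scale. The authors' normalized intensity, also put on the log2 scale here, was used as an alternative only. The offset pulls dim probes together, and quantile normalization removes a shift shared by most genes. Of 45281 probes, 34885 had 1 gene symbol, 18 several and 10378 none, and 34807 were found in the RefSeq mouse table through gene IDs; 20152 probes had a detection p under 0.05 on at least 4 arrays, and the brightest probe stood for each of 10724 genes. The 22 list symbols not found as written were matched by an older name.

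Arrays were assigned to the lower-cycle and higher-cycle sets by a rule that names them and that was drawn from these data; the present 2 cell cycle lists give the same sets within each line. The sets are not groups of the labels. The members, gene lists and tests were chosen with earlier results of these data known. Per-gene values are therefore differences with no test; the interaction of line with set was fitted with limma (intensity trend, Benjamini-Hochberg at 0.05), and its p-values are open to the same choice of arrays. Where the labels give no separate cultures, p-values measure the spread between arrays. The SD between like arrays pools the pairs of arrays of the same line and set.

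Genes were named by rule: in each direction the 12 shifted genes outside the cell cycle lists with the largest difference in the line where it was smaller; up to 4 shifted members of each of 32 lists, 6 for the cell cycle lists, or else the 2 largest differences; and the lowest interaction p in each direction. The count of shifted genes and the interaction fit were tested on simulated data with known differences. Alternatives were the background correction, the authors' table, normalization over the 8 d16HER2 arrays, the filter, the probe choice, each array left out, each BeadChip, BeadChip as a block and a 1.5-fold size. Promoters are RefSeq GRCm38.p6 sequences; the interferon element was shortened by 1 letter after its first search, and both results are given.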

Additional observations from a re-analysis of the deposited data

Results flagged for a closer look

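In sets of 4 arrays of a line, 15 of 252 examined gene and list values (5.95%) had 1 array far from the other 3 by Dixon's criterion. The criterion gives about 1 in 20 for like and independent values. Many of these genes were named for a gap between arrays of a line, and all share the same arrays. The rate to be expected here is therefore not known. Of the 15 values, 13 were on replicate 4. On MI6 replicate 4 Cmpk2 read 9.63 (other arrays 7.12 to 7.36), Usp18 12.14 (9.16 to 9.54), Egln1 9.90 (8.66 to 8.80) and Mt2 7.20 (6.07 to 6.20), all higher. On the same array Sdc4 read 8.27 (11.50 to 11.66), Cbx3 9.04 (11.53 to 11.91), Hyou1 4.97 (7.47 to 7.56) and Nrg1 6.73 (7.44 to 7.54), all lower. On MI7 replicate 4 Txnip read 14.48 (13.52 to 13.68), P4ha2 10.88 (9.81 to 9.98) and Aif1 6.30 (6.08 to 6.09), all higher, and Ect2 6.86 (8.64 to 8.83) and Rgs16 9.36 (9.98 to 10.06), both lower. The remaining ones were Aif1 on MI6 replicate 3 at 6.09 (6.20 to 6.22) and Pparg on MI6 replicate 1 at 5.43 (4.85 to 4.91).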

How the results depend on the processing

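The medians of the replication, mitosis, interferon and sterol lists kept their sign under every alternative run. Without background correction 9 genes were shifted higher and 53 lower, in place of 24 and 102, and the table the authors normalized gave the same 9 and 53. With a 1.5-fold size the counts were 158 and 301. Within BeadChip 1 45 genes were lower, the mitosis median was -0.98 and the interferon median 0.24; within BeadChip 2 98 genes were higher and 192 lower, and the interferon median was 1.31. Leaving out each array in turn, which leaves fewer arrays that must lie apart, gave 7 to 46 genes shifted higher and 44 to 174 lower. It gave medians of -1.02 to -0.77 for replication, -1.50 to -1.16 for mitosis, 0.37 to 0.46 for sterol and fatty acid synthesis and 0.45 to 1.02 for interferon genes, and 0 to 43 interaction calls (111 to 1754 at an unadjusted p under 0.05 in limma). The extremes were 46 and 174 without MI7 replicate 1, 7 higher without MI6 replicate 4, and 11 higher and 44 lower without MI7 replicate 4. Of the values for these 7 results under alternatives, 93 moved by less than the spread between like arrays or, for counts, by at most 1.5 times, 18 moved further and 2 gained a call. The lowest interferon median was without MI6 replicate 4. Arrays could not be paired by label, because the labels carry no replicate numbers, and the replicate numbers used here follow the accession order. Arrays were matched by BeadChip instead, in the within-BeadChip values and in the fit with BeadChip as a block. Dim probes are limited by their signal over the negative controls.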
